A study of Mus musculus with 16 samples.

Results

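The lysosome is the compartment in which cells break down proteins, lipids and sugar chains taken up from outside or delivered by autophagy. Its hydrolases work in an acidic lumen, which is kept acidic by the V-ATPase, a proton pump with a cytosolic sector that binds ATP and a membrane sector through which protons pass, and many of its genes carry an E-box to which the transcription factors Tfeb, Tfe3 and Mitf can bind. In adipose tissue, both adipocytes and the macrophages of the stroma use lysosomes, and macrophages are known for high levels of several cathepsins and of lysosomal acid lipase. Described here are 39 lysosomal genes out of the 22911 gene symbols with a probe on the array. They comprise 9 cathepsins, 12 other hydrolases or hydrolase cofactors, 5 genes of the lysosomal membrane and of cholesterol export, 10 subunits of the proton pump and 3 transcription factors. Each member was found by the RefSeq accession of its probes and was represented by its brightest probe, and all 39 were well above background on every array of all groups.

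RNA was taken from BAT and from gWAT of male C57BL/6NCrSlc mice on normal chow and hybridized to 1-colour Agilent arrays, 4 per tissue and genotype and 16 in all. Adipo-Pgam1 KO mice carry floxed alleles of Pgam1, the glycolytic enzyme phosphoglycerate mutase, together with Cre made under the adiponectin promoter, which is active in adipocytes and not in macrophages. Littermate controls, called wild-type in the labels, were Adipoq-Cre-: Pgam1 flox/flox, so that both genotypes carry the floxed alleles and only the knockout carries Cre. The mice were 16 weeks old, and in both tissues the knockout of replicate 4 was 14 weeks old. The sources used here do not say whether a BAT and a gWAT array of one number came from the same mouse, and if arrays of a group shared an animal, p-values would measure technical spread.

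Levels are given as the normalized log2 intensity, that is, log2 of a probe's signal over the 75th percentile of its array, so that a level of 0 equals this percentile. Because probes differ in how brightly they hybridize, levels were compared between groups for one gene and never between genes. The 75th percentile itself lay between 401.3 and 451.3 in BAT of controls and between 570.3 and 916.2 in the other groups. The arrays lay on 3 slides. One control array of BAT shared slide 2 with the 4 BAT arrays of Adipo-Pgam1 KO mice, and one control array of gWAT shared slide 3 with the 4 knockout arrays of gWAT, whereas the other controls lay on another slide. Slides 1 and 2 were scanned on one day and slide 3 on another. In gWAT, slide and scan day therefore cannot be told apart. Pgam1 differed by -1.74 (log2) in BAT of Adipo-Pgam1 KO mice (adjusted p = 1.11e-05, limma), but by 0.95 in gWAT (adjusted p = 0.0139), where it was higher in the arrays labelled as knockout. The gWAT arrays labelled Adipo-Pgam1 KO are therefore called labelled knockout arrays, and whatever is called higher or lower in gWAT follows this label. The gWAT groups as labelled were also apart in the summed brown adipocyte markers, at 109.3 to 288.6 in the labelled knockout arrays and 20.85 to 51.36 in controls. Of these 8 markers 5 were tested in gWAT. Of the 5, 3 were higher at an adjusted p under 0.05 (limma) and 2 were lower but not past it. The defining brown fat genes Ucp1 and Zic1 were below background on all gWAT control arrays, and Zic1 also on all labelled knockout arrays of gWAT. Of 7 markers of gonadal fat, Wt1, Tcf21 and Hoxc10 were below background on all BAT arrays, and the other 4 were well above it on all of them. In controls, 6 of these 7 were tested between the tissues, and 4 were lower and 2 higher in BAT (adjusted p under 0.05, limma). Unless stated otherwise, p-values are from limma with Benjamini-Hochberg adjustment over all genes tested in the comparison, changes are given ± their standard error (SE), and a gene with an adjusted p under 0.05 is said to have risen or fallen.

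In BAT of Adipo-Pgam1 KO mice, 18 of the 39 lysosomal genes were higher and 9 lower than in controls, against 27.5% of all 14280 genes tested that were higher and 34.0% that were lower. The 4 largest changes among the members were those of cathepsins, the main lysosomal proteases. Of the 9 cathepsins, 6 rose, Ctsb and Ctsz fell and Ctsd did not pass the test, and their median log2 change was 1.52, whereas the median over all genes tested was -0.08. In the heat map of the members across all arrays, Ctss, Ctsc, Ctsk, Ctsh and Ctsl were lower in BAT of controls than in the other 3 groups.

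**Figure D1:**
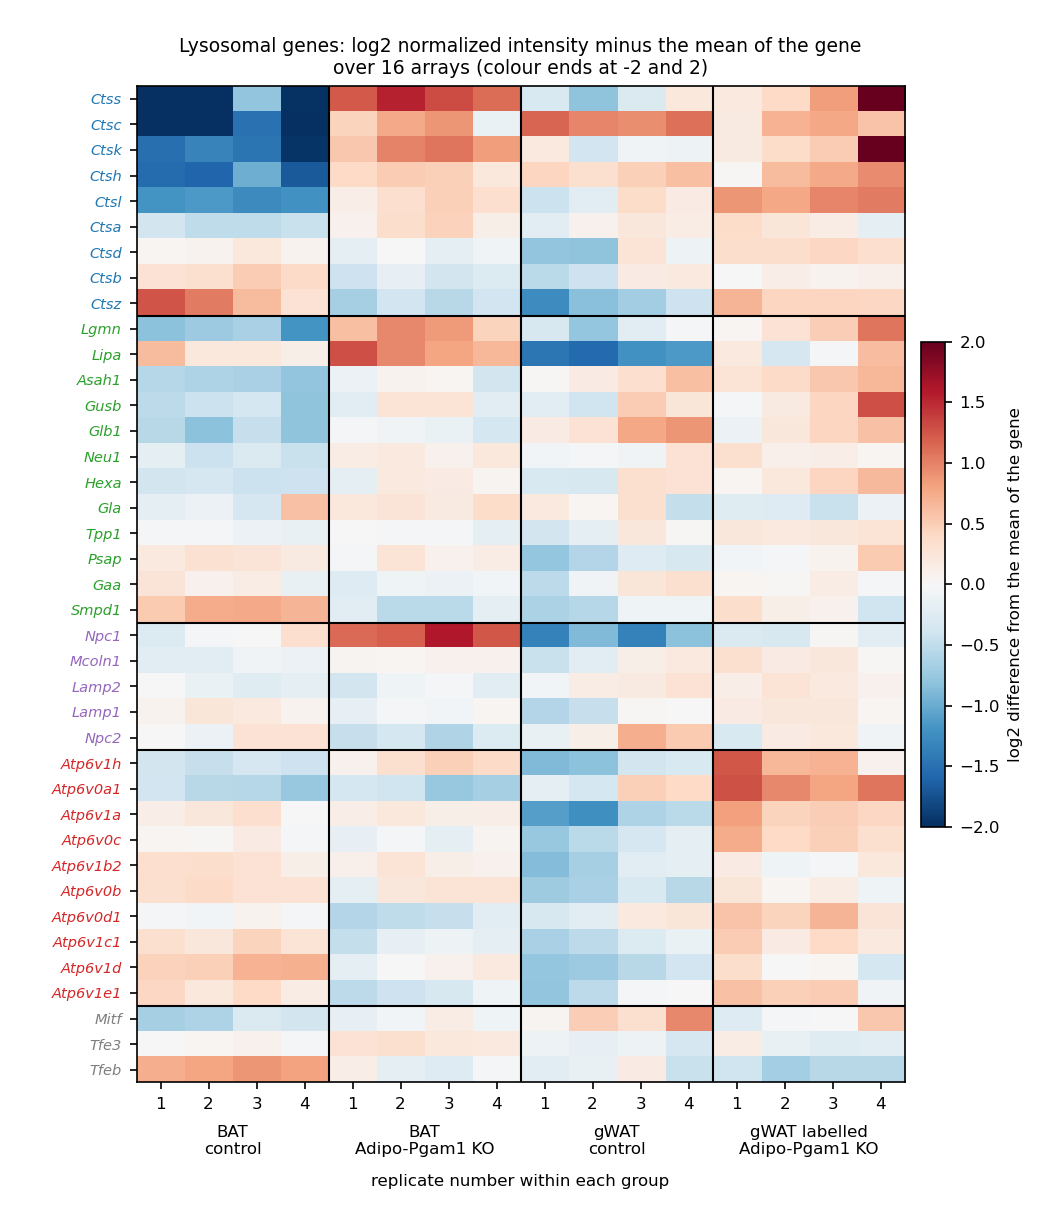
Each row is one of the 39 lysosomal genes and each column one of the 16 arrays, coloured by the log2 normalized intensity minus the mean of that gene over all arrays, with the genes ordered within each list by their change in BAT. The top 5 cathepsins are low in the 4 control arrays of BAT, most proton pump genes are low in the control arrays of gWAT, and replicate 4 of the labelled knockout arrays of gWAT stands out in Ctss and Ctsk.

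Cathepsin S (Ctss), an endopeptidase of antigen-presenting cells, stood at 1.79, 2.23, 3.79 and 2.61 in replicates 1 to 4 of the controls and at 5.82, 6.13, 5.89 and 5.70 in Adipo-Pgam1 KO mice. All 4 knockout arrays thus lay above the highest control. The log2 change was 3.28 ± 0.37 (SE, adjusted p = 0.000113), a 9.71-fold difference. Cathepsin C (Ctsc), which activates the serine proteases of immune cells, stood at -0.74, -0.44, 0.31 and -0.24 in controls and at 2.25, 2.56, 2.68 and 1.66 in the knockout. Again the groups did not overlap, although knockout replicate 4 was lower than the other 3, and the log2 change was 2.56 ± 0.28 (SE, adjusted p = 8.47e-05). Ctsk, a collagen-degrading cathepsin of osteoclasts and some macrophages and the chromosomal neighbour of Ctss, rose from 0.93, 1.11, 0.99 and 0.49 to 2.98, 3.44, 3.52 and 3.28. Its log2 change was 2.43 ± 0.17 (SE, adjusted p = 1.28e-05). The other 3 that rose were the aminopeptidase Ctsh, by 1.84, the endopeptidase Ctsl, by 1.52, and Ctsa, a carboxypeptidase that also protects Neu1 and Glb1, by 0.72. No knockout array of these 3 fell within the range of the controls.

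Cathepsins Z and B went the other way. The carboxypeptidase Ctsz stood at 6.83, 6.62, 6.21 and 5.87 in controls and at 4.92, 5.20, 5.02 and 5.20 in the knockout, with no overlap and a log2 change of -1.30 ± 0.20 (SE, adjusted p = 0.000599). The controls of slide 1 were the 3 highest, and with a block for the slide, where the single control of slide 2 carries the comparison, the change was -0.79 (adjusted p = 0.0284). Ctsb, a widely expressed protease, stood at 8.61, 8.64, 8.83 and 8.70 in controls and 7.90, 8.15, 7.95 and 8.05 in the knockout, a log2 change of -0.68 ± 0.10 (SE, adjusted p = 0.000369). The knockout arrays lay together, all below the lowest control. Ctsd, the major aspartic protease of the lysosome, had a log2 change of -0.20 (95% interval -0.41 to 0.00, adjusted p = 0.0790).

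Markers of other cell types differed between the same arrays. Of 20 macrophage markers, 17 were higher in BAT of Adipo-Pgam1 KO mice and none was lower, with a median log2 change of 2.79, and their summed normalized intensity was 42.5 to 64.6 in controls and 187 to 267 in the knockout. None of the 20 was below background on all arrays of a group. All 5 fibroblast markers were higher too, their sum rising from between 120.7 and 167.1 to between 227.3 and 327.1, and 7 of 8 adipocyte markers were lower, with a sum of 2733 to 3018 in controls and 968.6 to 1370 in the knockout. The part of these cell types in the cathepsin result was not tested. The arrays measured whole tissue, so that more cells of a type and more RNA per cell cannot be told apart. Skeletal muscle markers summed to 78.9 in knockout replicate 1 and to 14.1 or less in the other BAT arrays. Without that replicate 1, 16 members were higher and 9 lower, against 3746 and 4584 of the 14295 genes then tested.

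Of the 12 other hydrolases and cofactors, 7 rose, Smpd1 fell and 4 did not pass the test in BAT, where 27.5% of all genes rose and 34.0% fell, and the median log2 change was 0.47. Legumain (Lgmn), an asparaginyl endopeptidase that processes cathepsins, changed most. It stood at 4.23, 4.33, 4.40 and 3.85 in controls and at 5.66, 6.02, 5.91 and 5.50 in Adipo-Pgam1 KO mice, so that the groups were separated by more than their own range, with a log2 change of 1.57 ± 0.16 (SE, adjusted p = 6.77e-05). Lysosomal acid lipase (Lipa), which splits cholesteryl esters and triglycerides, stood at 3.71, 3.30, 3.30 and 3.21 in controls and 4.38, 4.05, 3.88 and 3.75 in the knockout. The lowest knockout array lay just above the highest control, and the log2 change was 0.63 ± 0.17 (SE, adjusted p = 0.00935). The glycosidases Gusb, Glb1 and Hexa, the sialidase Neu1 and the ceramidase Asah1 rose by 0.45 to 0.56. In contrast, Smpd1, the acid sphingomyelinase, which releases ceramide from sphingomyelin, stood at 6.16, 6.38, 6.40 and 6.31 in controls and fell to 5.43, 5.10, 5.10 and 5.43. Its log2 change was -1.05 ± 0.12 (SE, adjusted p = 0.000109). The alpha-glucosidase Gaa, which degrades glycogen, the alpha-galactosidase Gla, the saposin precursor Psap and the peptidase Tpp1 had log2 changes of -0.21 to 0.27 and did not pass the test.

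Among the membrane and cholesterol genes of BAT, the pair that hands cholesterol out of the lysosome changed in opposite directions. The transporter Npc1 stood at 3.19, 3.42, 3.45 and 3.80 in controls and at 4.59, 4.66, 5.06 and 4.71 in Adipo-Pgam1 KO mice, with no overlap and a log2 change of 1.29 ± 0.16 (SE, adjusted p = 0.000159). Npc2, the soluble protein that loads cholesterol onto Npc1, stood at 5.45, 5.33, 5.72 and 5.73 in controls and at 4.98, 5.09, 4.84 and 5.17 in the knockout. All 4 knockout arrays lay below the lowest control, with a log2 change of -0.54 ± 0.13 (SE, adjusted p = 0.00586), but under scaling by the spike-in controls the change was 0.0036. The calcium channel Mcoln1 stood at 3.99, 4.01, 4.15 and 4.10 in controls and 4.27, 4.25, 4.31 and 4.30 in the knockout, a small log2 change of 0.22 ± 0.08 (SE, adjusted p = 0.0463) that stayed past the threshold only without control replicate 3 when each array was left out in turn, with an adjusted p of up to 0.116. The major membrane proteins Lamp1 and Lamp2 changed by -0.20 and -0.03 and did not pass the test.

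Of the 10 subunits of the proton pump in BAT, only Atp6v1h rose, 4 fell, and 5 did not pass the test, with a median log2 change of -0.15. Of all genes, 27.5% rose and 34.0% fell, so that the pump's count of falls was near the background. Atp6v1h, a regulatory subunit of the cytosolic sector, stood at 4.71, 4.62, 4.75 and 4.67 in controls and at 5.17, 5.40, 5.56 and 5.46 in the knockout, and its log2 change was 0.71 ± 0.11 (SE, adjusted p = 0.000466). Second probes changed by 0.70 for Atp6v1h, -0.13 for Atp6v0c, 0.44 for Atp6v0a1 and 0.26 for Atp6v1b2, the last opposite in sign to the brighter probe, at -0.13. The stalk subunit Atp6v1e1 stood at 5.49, 5.28, 5.46 and 5.23 in controls and at 4.54, 4.66, 4.75 and 4.98 in Adipo-Pgam1 KO mice, below the controls on every array, with a log2 change of -0.63 ± 0.12 (SE, adjusted p = 0.00194). Atp6v1d, a subunit of the rotor, stood at 5.39, 5.41, 5.63 and 5.65 and 4.74, 4.94, 5.01 and 5.12, also without overlap, and its log2 change was -0.56 ± 0.12 (SE, adjusted p = 0.00291). The other 2 that fell were Atp6v1c1, by 0.55, and Atp6v0d1, which links the sectors, by 0.43. The 5 that did not pass the test, among them the catalytic subunit Atp6v1a and the proton channel subunit Atp6v0c, had log2 changes of -0.17 to 0.02. When the slide was added to the fit, Atp6v1e1 and Atp6v0d1 no longer passed (adjusted p = 0.0634 and 0.0753).

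The direction of several small changes depended on how the arrays were scaled. The median over all genes in BAT was -0.08 as reported, 0.46 when scaled by spike-in probes and -0.67 when scaled by Actb and Rplp0. The cathepsin median was 2.07 and 0.93 under those scalings, above the median of all genes in both. The pump median was 0.39 and -0.74, just below that of all genes in both, and it was 0.10 under quantile normalization, where that of all genes was 0.02. None of the 8 cathepsins that passed the test changed sign under any of the 5 other scalings or background corrections tried. The change of Ctsb, however, shrank to as little as -0.06, and Ctsd, not called as reported, turned to as much as 0.34. With quantile normalization and with spike-in scaling, 7 cathepsins were higher and 1 lower past the threshold. Asah1, Glb1, Gusb, Hexa and Neu1 turned to between -0.14 and -0.03 when scaled by Actb and Rplp0, and Atp6v0d1 to 0.11 when scaled by spike-in probes.

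**Figure D2:**
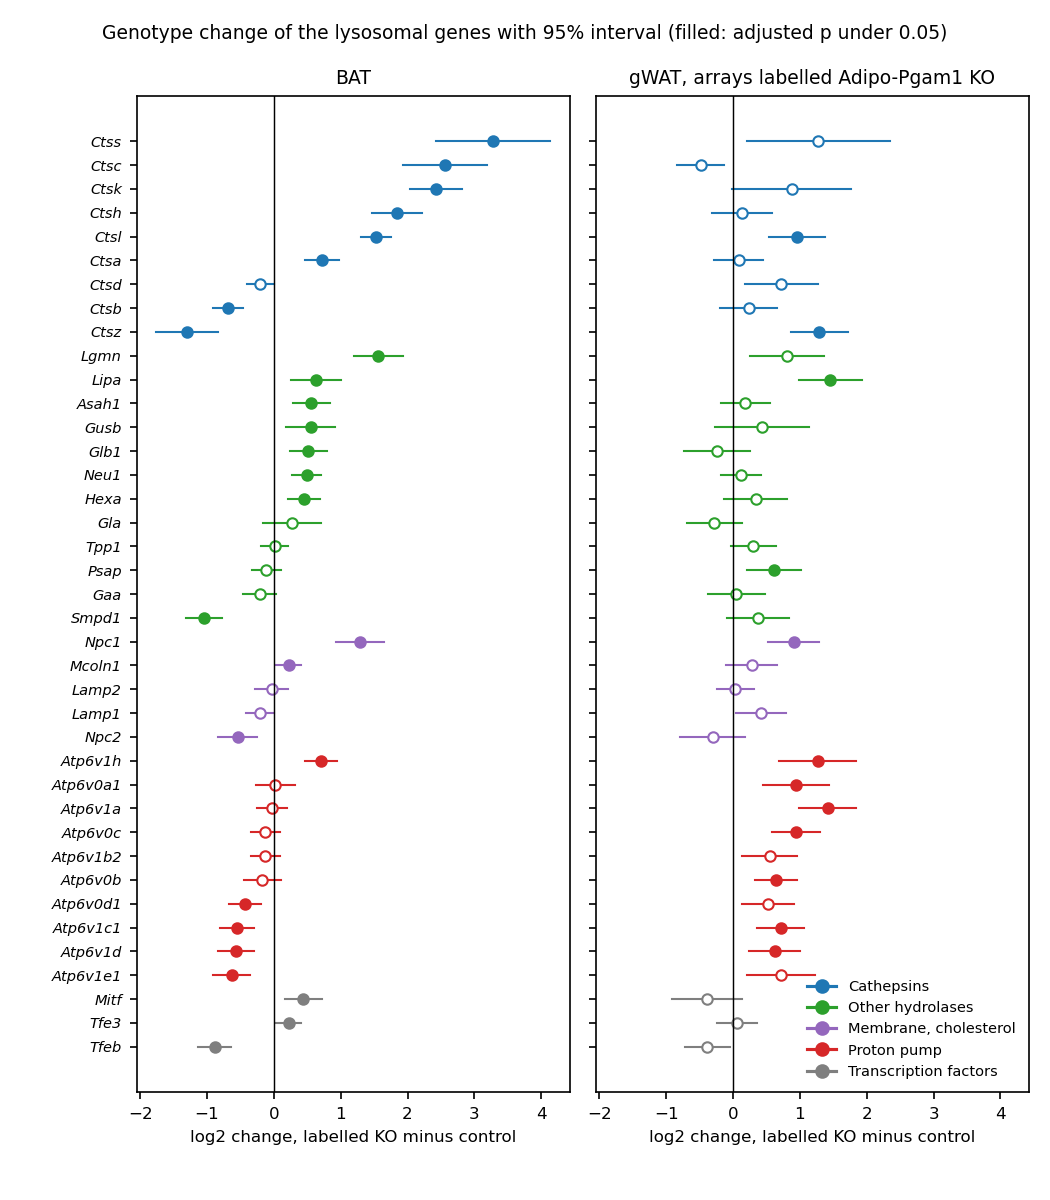
Points give the log2 change (labelled knockout minus control, 4 arrays each) of every member in BAT on the left and in gWAT on the right, with the 95% interval from limma, filled where the adjusted p is under 0.05. In BAT the cathepsins spread from -1.30 to 3.28 and the pump genes cluster about 0, whereas in gWAT all 10 pump genes lie above 0.

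**Figure D3:**
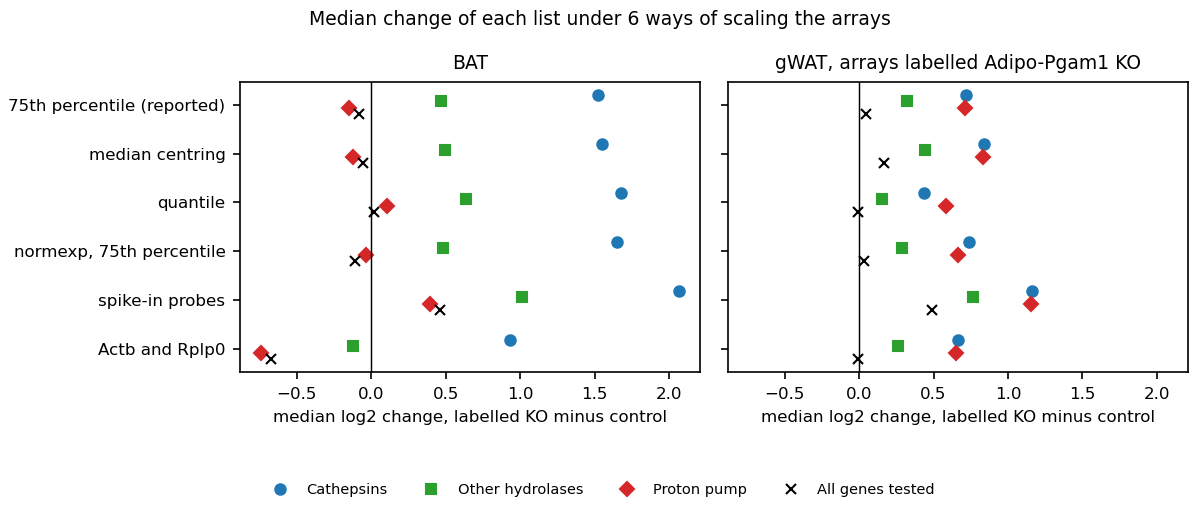
Median log2 change (labelled knockout minus control) of the 9 cathepsins, the 12 other hydrolases, the 10 proton pump genes and all genes tested, under 6 ways of scaling or background-correcting the arrays, for BAT on the left and gWAT on the right. In BAT the pump median follows that of all genes under each scaling and the cathepsin median stays above it, and in gWAT the pump median lies at 0.58 to 1.16.

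In gWAT, 12 of the 39 members were higher in the labelled knockout arrays than in controls and none was lower, against 9.99% of the 14149 genes tested that were higher and 7.85% that were lower. At an unadjusted p under 0.05, 2 members were lower, Ctsc and Tfeb. The median log2 change of the members was 0.43 and that of all genes 0.05. The 10 proton pump genes were all higher, 7 of them past the threshold, with a median of 0.71 and a range of 0.52 to 1.41. Their sign was the same under the 5 other scalings and background corrections.

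Atp6v1a, the catalytic subunit that hydrolyses ATP, stood at 2.92, 2.81, 3.42 and 3.49 in gWAT of controls and at 4.85, 4.48, 4.52 and 4.44 in the labelled knockout arrays. All labelled knockout arrays lay above the highest control, and the log2 change was 1.41 ± 0.19 (SE, adjusted p = 0.00368). The regulatory subunit Atp6v1h stood at 4.20, 4.26, 4.72 and 4.78 in controls and at 6.33, 5.75, 5.77 and 5.18 in the labelled knockout arrays, where replicate 1 was the highest and replicate 4 the lowest. Its log2 change was 1.26 ± 0.25 (SE, adjusted p = 0.0143). Atp6v0c, which forms the proton-carrying ring, stood at 4.13, 4.35, 4.55 and 4.70 and 5.63, 5.29, 5.37 and 5.21 without overlap, a log2 change of 0.94 ± 0.16 (SE, adjusted p = 0.00856). The membrane subunits Atp6v0a1 and Atp6v0b and the cytosolic subunits Atp6v1c1 and Atp6v1d rose by 0.62 to 0.94. When each array was left out in turn, Atp6v1d passed in 2 of 8 fits and Atp6v0a1, Atp6v0b and Atp6v1c1 in 5 of 8. The remaining Atp6v0d1, Atp6v1b2 and Atp6v1e1 had log2 changes of 0.52 to 0.71 and adjusted p of 0.0585 to 0.0689. Second probes changed by 1.38 for Atp6v1h, 1.05 for Atp6v0c, 0.30 for Atp6v0a1 and 0.19 for Atp6v1b2.

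Of the cathepsins in gWAT, Ctsz and Ctsl passed the test. Ctsz stood at 4.31, 4.75, 4.88 and 5.17 in controls and at 6.26, 6.01, 6.01 and 5.99 in the labelled knockout arrays, a log2 change of 1.29 ± 0.18 (SE, adjusted p = 0.00468). It was thus higher on every labelled knockout array of gWAT, whereas it was lower on every knockout array of BAT. Ctsl stood at 5.79, 5.99, 6.58 and 6.37 and 7.10, 6.997, 7.19 and 7.26, also without overlap, a log2 change of 0.95 ± 0.18 (SE, adjusted p = 0.0131). Ctss and Ctsk had log2 changes of 1.27 and 0.87 that did not pass (adjusted p = 0.0927 and 0.148), with the labelled knockout arrays at 4.78, 4.98, 5.43 and 7.07 for Ctss and at 2.62, 2.80, 2.95 and 4.54 for Ctsk. In both, replicate 4 stood well above replicates 1 to 3, and the lower arrays overlapped or adjoined the controls. Ctsc was -0.48 (adjusted p = 0.0583) and the remaining 4 had log2 changes of 0.08 to 0.72.

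Lipa was the hydrolase with the largest change in gWAT. It stood at 1.64, 1.54, 1.88 and 1.94 in controls and at 3.29, 2.75, 3.07 and 3.70 in the labelled knockout arrays, 2.74-fold higher and without overlap, with a log2 change of 1.45 ± 0.21 (SE, adjusted p = 0.00472). Psap, the precursor of the saposins that present lipids to their hydrolases, stood at 5.66, 5.85, 6.17 and 6.11 in controls and at 6.38, 6.41, 6.49 and 6.95. Its log2 change of 0.61 ± 0.18 (SE, adjusted p = 0.0462) was close to the threshold and passed it in none of the 8 fits that left out an array. The other 10 hydrolases had log2 changes of -0.28 (Gla) to 0.81 (Lgmn) and did not pass. Npc1 was the only membrane or cholesterol gene to pass. It stood at 2.10, 2.58, 2.10 and 2.64 in gWAT of controls and at 3.17, 3.14, 3.48 and 3.25 in the labelled knockout arrays, a log2 change of 0.91 ± 0.17 (SE, adjusted p = 0.0117), while Npc2 was -0.31 (adjusted p = 0.346). Lipa and Npc1 were the members called higher in both tissues together with Ctsl and Atp6v1h.

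These gWAT calls rested on few arrays and on the comparison between slides that were scanned on different days. When the slide was added to the fit, which leaves a single control beside the labelled knockout arrays, none of the 39 members passed in limma, while 66 of all genes were higher and 118 lower, and none passed within slide 3 alone. The 10 pump genes were all higher in that fit too, with a median log2 change of 0.53, and Atp6v1a was 1.08 (adjusted p = 0.116). Without control replicate 2, 7 members and 609 of all genes were higher, and without replicate 1 of the labelled knockout arrays 7 and 587. Without their replicate 4, 13 members and 2088 of all genes were higher, against 12 and 1414 with all arrays. That replicate 4 had the highest summed macrophage markers in gWAT, 389 against 136, 182 and 231 in replicates 1 to 3 and 125.5 to 179.7 in controls, and of the 20 macrophage markers Gpnmb, Trem2 and Cd68 passed the test in gWAT. The summed brown adipocyte markers were 289, 183, 180 and 109 in replicates 1 to 4 of the labelled knockout arrays, all above the gWAT controls. Skeletal muscle markers summed to 2.78 to 24.2 in gWAT of controls and to 29.7 to 57.8 in the labelled knockout arrays. Of these 6 markers, however, 3 were tested and none passed, with 1 higher and 2 lower. Myh4, Myh1 and Ckm were below background on all labelled knockout arrays. Of 8 adipocyte markers, 2 were lower. The part of these cell types in the lysosomal result was not tested.

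**Figure D4:**
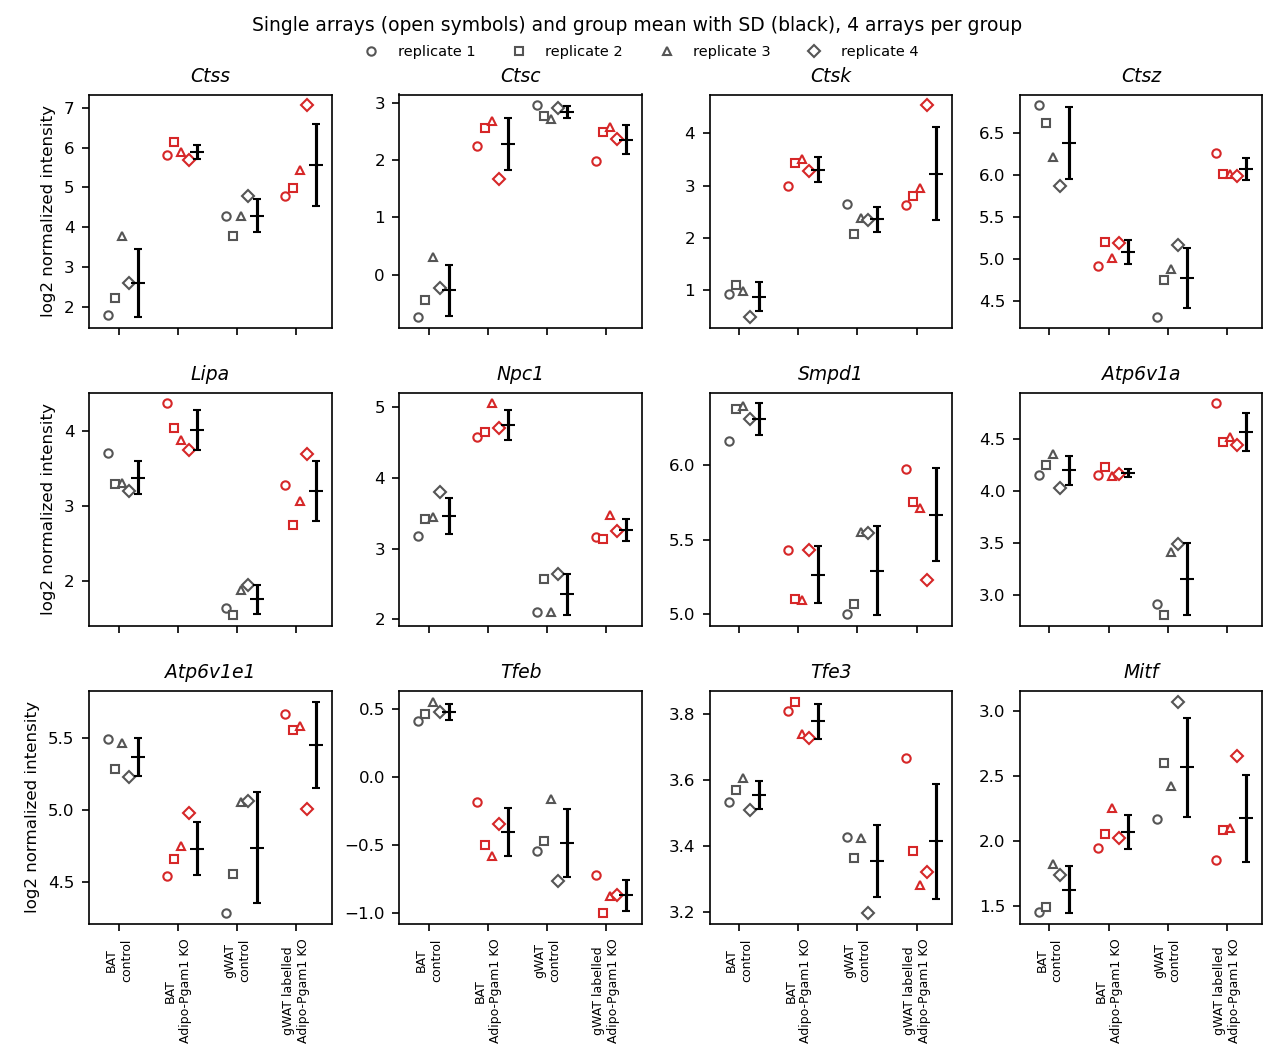
Each panel shows the normalized log2 intensity of one member on single arrays (open symbols, the shape giving the replicate number) in the 4 groups, with the mean and SD of 4 arrays in black, and each panel has its own scale. Ctsz is lower in the BAT knockout arrays and higher in the labelled knockout arrays of gWAT than in the controls of that tissue, Npc1 and Lipa are higher in both, and Atp6v1a is at 2.81 to 3.49 in gWAT controls against 4.44 to 4.85 in the labelled knockout arrays.

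The BAT and gWAT comparisons have no array in common, and whether the genotype difference itself differed between the tissues was tested as an interaction over all 16 arrays, given as the change in gWAT minus that in BAT. By this test 17 members were higher and 8 lower, against 27.4% and 20.9% of the 14820 genes tested. All 9 cathepsins passed, but Ctsl did so in only 7 of the 16 fits that left out an array. Because each difference subtracts BAT from gWAT, its sign and size hold only for gWAT as labelled. Ctsz differed by 2.59 ± 0.28 (SE, adjusted p = 1.65e-05) and Ctsc by -3.05 ± 0.33 (SE, adjusted p = 1.54e-05), with a change of 2.56 in BAT and -0.48 in gWAT. The proton pump genes differed in one direction, with all 10 higher in gWAT relative to BAT, 9 of them past the threshold, and a median of 1.01. All 10 differences were smaller with the slide as a block, at 0.23 (Atp6v1b2) to 1.08 (Atp6v1d). Only Atp6v1a, Atp6v1c1 and Atp6v1d of the pump genes then passed the threshold. In that fit a single control of each tissue shares a slide with the knockout arrays. Without the block, Atp6v1a differed by 1.44 ± 0.21 (SE, adjusted p = 0.000115) and Atp6v1e1 by 1.34 ± 0.26 (SE, adjusted p = 0.000861). Only Atp6v1h, which rose in both tissues, did not pass (difference 0.56, 95% interval -0.05 to 1.16). Among the other hydrolases Smpd1 differed by 1.42 ± 0.24 (SE, adjusted p = 0.000305) and Lipa by 0.82 ± 0.27 (SE, adjusted p = 0.0234). Of the membrane genes only Lamp1 passed, with 0.62 ± 0.18 (SE, adjusted p = 0.0124), but its difference was -0.13 under quantile normalization. For Npc1 the difference of -0.38 did not pass, with a 95% interval of -0.88 to 0.12. With the slide as a block, an alternative chosen after seeing the data, 5 members were higher and 6 lower. Of all 14820 genes, 1700 were then higher and 1565 lower, also fewer than without the block. Of the 9 cathepsins Ctsc, Ctsh and Ctsz passed with the block while the other 6 did not (adjusted p = 0.0839 to 0.301). Ctsz, Ctsc, Smpd1 and Atp6v1a were at 1.69, -3.08, 1.17 and 0.94 in that fit, all past the threshold, and Lipa and Atp6v1e1 were not (adjusted p = 0.491 and 0.136).

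BAT and gWAT were also compared in the arrays labelled as controls, and the gWAT side again rests on its label. This comparison uses the control arrays of both genotype comparisons, so its values are given beside theirs and not as separate evidence. In controls, 14 members were higher in BAT than in gWAT and 13 lower, against 35.4% and 29.3% of the 14304 genes tested. The cathepsins were mostly lower in BAT, with 6 lower, 2 higher and a median log2 difference of -1.17, whereas of the 10 pump genes 7 were higher, 1 lower and the median was 0.67. Ctsc differed most, by -3.12 ± 0.21 (SE, adjusted p = 5.58e-06), with 2.96, 2.78, 2.73 and 2.91 on the gWAT control arrays against a highest BAT control of 0.31. Ctsh differed by -1.91 ± 0.17 (SE, adjusted p = 2.07e-05), standing at 2.64, 2.60, 3.20 and 2.49 in BAT and 4.62, 4.50, 4.66 and 4.78 in gWAT. Ctsb, one of the 2 that were higher, was at -0.42 under quantile normalization. Macrophage markers were lower in BAT too, with 19 of 20 past the threshold and a median of -1.86, and their part in these differences was not tested. Among the other hydrolases, Lipa was higher in BAT by 1.63 ± 0.15 (SE, adjusted p = 2.97e-05) and Glb1, the beta-galactosidase, differed by -1.19 ± 0.19 (SE, adjusted p = 0.000586). The Glb1 arrays stood at 1.54, 1.28, 1.63 and 1.29 in BAT and 2.27, 2.39, 2.88 and 2.98 in gWAT. Npc1 was higher in BAT by 1.11 ± 0.19 (SE, adjusted p = 0.000812). Of the pump, Atp6v1d differed by 1.20 ± 0.13 (SE, adjusted p = 6.92e-05) and Atp6v1a by 1.04 ± 0.18 (SE, adjusted p = 0.000952), and Atp6v0a1 alone was lower, at -0.65. The mean of Atp6v1a was 4.20 in BAT of controls, 3.16 in gWAT of controls and 4.57 in the labelled knockout arrays of gWAT. Those of Atp6v0c were 4.95, 4.43 and 5.38 and those of Atp6v1e1 5.37, 4.74 and 5.45. By their means, Atp6v1a, Atp6v0c and Atp6v1e1 were thus higher in BAT only against the arrays labelled control. The means of Atp6v1d (5.52, 4.32 and 4.94), Atp6v0b (4.40, 3.52 and 4.17) and Atp6v1b2 (5.25, 4.50 and 5.04) were higher in BAT than in both gWAT groups. The Atp6v1b2 arrays overlapped, at 5.10 to 5.33 in BAT of controls and 4.90 to 5.20 in the labelled knockout arrays. BAT of controls was not tested against the labelled knockout arrays. Atp6v1c1 was at 2.80 in BAT of controls and in the labelled knockout arrays. One BAT control and 3 gWAT controls shared slide 2. Within that slide the log2 differences were -3.06 for Ctsc, 1.52 for Lipa, 1.40 for Atp6v1d and 0.99 for Atp6v1a. The other pump genes called higher were at 0.53 (Atp6v0c) to 0.84 (Atp6v0b), and Atp6v0a1 was at -0.74. A single BAT control stands behind these sizes, so no call is drawn from them.

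**Figure D5:**
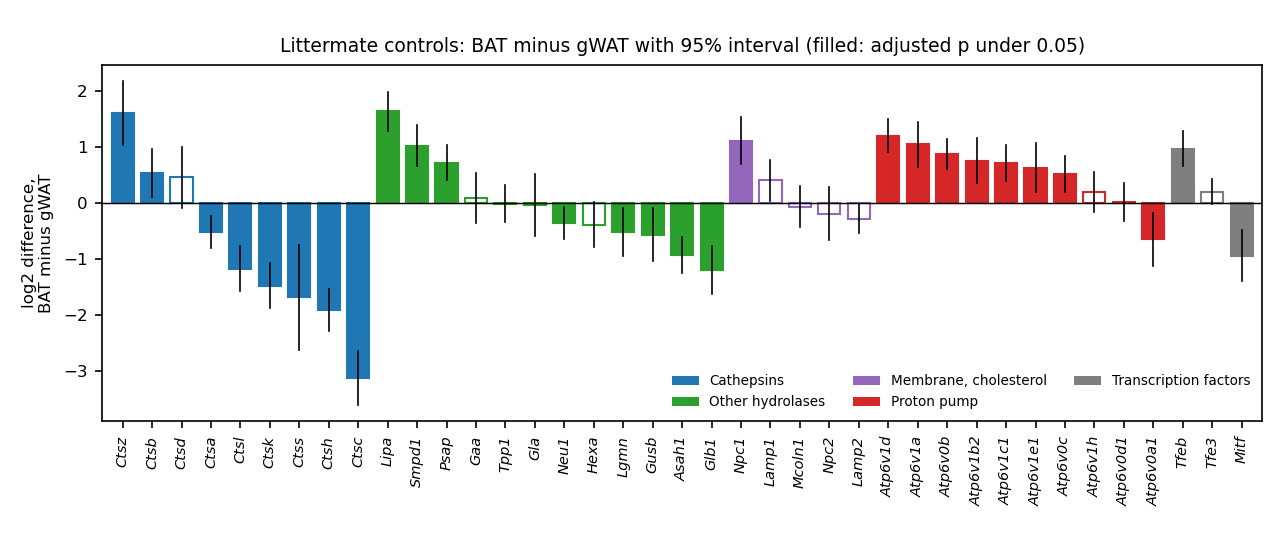
Bars give the log2 difference between BAT and gWAT of the littermate controls (4 arrays each) for every member, with the 95% interval from limma as a line, filled where the adjusted p is under 0.05. Most cathepsins lie below 0, down to -3.12 for Ctsc, and most pump genes above it, up to 1.20 for Atp6v1d.

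The 3 transcription factors of lysosomal genes were each measured in all groups. Tfeb stood at 0.41, 0.46, 0.56 and 0.48 in BAT of controls and fell to -0.18, -0.50, -0.58 and -0.34 in Adipo-Pgam1 KO mice, a log2 change of -0.88 ± 0.11 (SE, adjusted p = 0.000169). Other Tfeb probes changed less, by -0.42, -0.27 and 0.02, the last without a fall. Whether Tfeb fell, and by how much, thus depended on the probe. In gWAT it stood at -0.54, -0.47, -0.16 and -0.77 in controls and at -0.73, -1.01, -0.88 and -0.87 in the labelled knockout arrays, a log2 change of -0.38 that did not pass (adjusted p = 0.107) and was 0.37, 0.25 and -0.05 with the other probes. Tfe3 stood at 3.53, 3.57, 3.61 and 3.51 in BAT of controls and at 3.81, 3.84, 3.74 and 3.73 in the knockout. The arrays did not overlap, but the log2 change of 0.22 ± 0.08 (SE, adjusted p = 0.0390) was small and passed the threshold in only 1 of 8 fits that left out an array. In gWAT, Tfe3 stood at 3.43, 3.37, 3.43 and 3.20 and 3.67, 3.38, 3.28 and 3.32, with overlap and a log2 change of 0.06 (adjusted p = 0.781). Mitf, best known from melanocytes and osteoclasts, stood at 1.45, 1.49, 1.82 and 1.74 in BAT of controls and at 1.95, 2.05, 2.26 and 2.03 in the knockout, a log2 change of 0.44 ± 0.12 (SE, adjusted p = 0.0117). It stood at 2.17, 2.60, 2.43 and 3.07 in gWAT of controls and at 1.86, 2.09, 2.10 and 2.65 in the labelled knockout arrays, -0.39 (adjusted p = 0.265). The change differed between the tissues by -0.83 for Mitf (adjusted p = 0.0196) and by 0.50 for Tfeb (adjusted p = 0.0329). With the slide as a block, the changes of Tfe3 and Mitf in BAT did not pass (adjusted p = 0.112 and 0.192). In controls, Tfeb was higher in BAT than in gWAT by 0.97 ± 0.14 (SE, adjusted p = 0.000348), whereas Mitf differed by -0.94 ± 0.20 (SE, adjusted p = 0.00294) and, with the slide as a block, by -0.66 (adjusted p = 0.0632).

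The RefSeq promoters (GRCm38.p6, 250 bases before to 50 after a transcript start) were searched for the E-box CACGTG and for its extension TCACGTGA, which contains it and is the core of the element bound by Tfeb, Tfe3 and Mitf. Each reads the same on both strands. Of the 39 members, 32 were in the promoter table, of which 12 (37.5%) held CACGTG and 6 (18.75%) held TCACGTGA, against 8.09% and 1.12% of all 27025 genes of the table. The 6 were Ctsa, Ctsd, Gla, Mcoln1, Atp6v0d1 and Atp6v1a, and none of the 3 transcription factors held either motif. In BAT, Ctsa and Mcoln1 rose, Atp6v0d1 fell, and Ctsd, Gla and Atp6v1a did not pass the test, whereas in gWAT only Atp6v1a passed. Ctss, Ctsc and Ctsk, the cathepsins that rose most in BAT, were not among the 12 with CACGTG. A match describes these letters only, and whether a factor binds there was not measured. Of the holders with a TCACGTGA wholly before the start, the 4 with the largest change in BAT are printed to show its place, from 5′ to 3′ on the strand of the gene, with TCACGTGA in capitals. Ctsa has a second copy after the start, outside the printed stretch.
Ctsa (chr2:164833700-164833772, plus strand, first element 13 bases before the start): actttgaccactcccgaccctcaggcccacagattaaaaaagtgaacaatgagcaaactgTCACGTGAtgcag
Gla (chrX:134601166-134601255, minus strand, first element 228 bases before the start): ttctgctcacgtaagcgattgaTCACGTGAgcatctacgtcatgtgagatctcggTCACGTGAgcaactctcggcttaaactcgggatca
Mcoln1 (chr8:3500413-3500518, plus strand, element 46 bases before the start): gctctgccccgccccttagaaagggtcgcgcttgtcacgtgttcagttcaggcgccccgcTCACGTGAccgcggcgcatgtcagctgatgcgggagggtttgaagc
Ctsd (chr7:142387859-142387986, minus strand, element 99 bases before the start): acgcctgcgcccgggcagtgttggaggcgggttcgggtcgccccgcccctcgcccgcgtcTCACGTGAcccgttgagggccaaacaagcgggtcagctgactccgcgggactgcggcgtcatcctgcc

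A further 86 lysosomal genes on the array, taken from textbook knowledge of the organelle, give the surroundings of the 39. In BAT, 76 of them were tested, and in the knockout 23 of these rose and 29 fell, shares near the 27.5% and 34.0% of all genes. Among 33 further hydrolases, 9 were higher and 15 lower, with a median log2 change of -0.11. The carboxypeptidase Prcp rose by 2.05 ± 0.15 (SE, adjusted p = 1.40e-05), while the hyaluronidase Hyal1 fell by 3.67 ± 0.11 (SE, adjusted p = 4.79e-07) and the tartrate-resistant phosphatase Acp5 by 1.63 ± 0.18 (SE, adjusted p = 0.000104). Of 33 further membrane and sorting genes, 9 were higher and 10 lower, with a median of 0.03, led by the galectin Lgals3, which marks damaged lysosomes and macrophages, at 5.05, the channel Mcoln2 at 3.38, the sorting receptor Sort1 at -1.42 and the transporter Abcb9 at -1.30. Of 10 further pump subunits, 5 were higher and 4 lower. These include Atp6v0d2, an isoform of Atp6v0d1 known from macrophages and osteoclasts, which was well above background on 4 knockout but only 2 control arrays and had group means of 0.35 and -4.29, and Atp6v0e2 at 2.35, against -1.13 for Atp6v0a2 and -0.77 for Atp6v1g2.

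In gWAT, 79 of the 86 were tested, and 18 of these rose and 7 fell in the labelled knockout arrays, where 9.99% of all genes rose and 7.85% fell. The 34 hydrolases gave 5 in each direction and a median log2 change of 0.04, led by the peptidase Scpep1 at 0.98 ± 0.13 (SE, adjusted p = 0.00379) and the asparaginase Aga at 0.76, and by Acp5 at -0.89 and the cathepsin Ctso at -0.74. Of 33 membrane and sorting genes, 10 were higher, the median was 0.26 and Sort1 alone was lower, at -0.63. Lgals3 rose by 2.05 ± 0.29 (SE, adjusted p = 0.00428) and the transporter Abca2 by 1.31. Of 12 further pump subunits 3 were higher, led by Atp6v0d2 with 2.95 ± 0.70 (SE, adjusted p = 0.0248) and Atp6v1g1 with 0.61. Atp6v1c2 was not well above background on any labelled knockout array and entered the test through the controls alone, so no p-value is given for it. It was at least 4.67-fold lower there than in controls, the bound being set by the dimmest probes that were well above background.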

How the data were processed

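RNA of BAT and gWAT was hybridized to Agilent mouse arrays and scanned, and the authors deposited the output of Agilent Feature Extraction 10.7.1.1 for each of 16 arrays. The deposited gProcessedSignal intensity is background-subtracted but not normalized between arrays. The 75th percentile of each array was subtracted from the log2 of the deposited intensity. Probes were named through RefSeq accessions (91.94% of 35886 matched), and the brightest probe stood for a gene. A gene was tested where every array of a compared group had it well above background, with limma 3.58.1 (R 4.3.3), separately in each tissue and over 16 arrays for the interaction. The members and gene lists were chosen with earlier results of these data known. Values by array are given for the 3 most changed called members of each list (2 in the comparison of tissues and the interaction), members called against most of their list, and the 3 transcription factors. One further gene that the rule for other lysosomal genes names is not reported here. Alternatives were other scalings (quantile, median, spike-in probes, Actb and Rplp0), normexp on the median signal with an offset of 50 (no mean signal was in the files used), the table of normalized intensity the authors deposited, no filter on dim probes, the mean over probes, the slide or the replicate number as a block, the methods' t-test, and leaving out each array. On simulated data with 200 changed genes, changes of 1 and 2 on the log2 scale were recovered in 72% and 93% of genes for BAT, 51% and 83% for gWAT, 65% and 85% for the tissues and 50% and 80% for the interaction. The share of false calls was 6.78%, 2.19%, 3.85% and 6.47% in the same order. Far more genes were called in the real data, such as 8776 of 14280 in BAT, so recovery there may differ. The number of arrays limits the precision.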

Additional observations from a re-analysis of the deposited data

Results flagged for a closer look

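In 5 of the 156 sets of 4 arrays (39 members in 4 groups), 1 array lay apart from the other 3 by more than Dixon's 95% limit, which chance gives in about 1 of 20 sets. Ctsk was 4.54 in replicate 4 of the labelled knockout arrays of gWAT (next value 2.95). Ctsz was 6.26 in their replicate 1 (next value 6.01) and Atp6v1e1 was 5.01 in their replicate 4 (next value 5.55). Neu1 was 4.20 in gWAT control replicate 4 (next value 3.87), and Atp6v0b was 3.89 in BAT replicate 1 of Adipo-Pgam1 KO mice (next value 4.31).

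The genotype change differed between the tissues by the interaction test for 9 members named here. Given as the log2 change in gWAT, by its labels, minus that in BAT, the difference was -3.05 for Ctsc, 2.59 for Ctsz, 1.42 for Smpd1, 0.82 for Lipa, 0.62 for Lamp1, 1.44 for Atp6v1a, 1.34 for Atp6v1e1, -0.83 for Mitf and 0.50 for Tfeb. The Tfeb difference passed the threshold in 9 of the 16 fits that left out an array.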

How the results depend on the processing

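In BAT, 30 members were higher and 2 lower with spike-in scaling, where 7266 of all 14280 genes were higher and 1843 lower. With Actb and Rplp0 scaling 7 members were higher and 22 lower, against 1917 and 8901 of all genes. In gWAT, by its labels, 25 were higher with spike-in scaling, 19 in 1 fit over all 16 arrays, 6 with the replicate block, and 0 with the slide as a block or within slide 3, and leaving out single arrays gave 7 to 13. No member of gWAT was called lower as reported, and 1 was with quantile normalization, normexp and the fit over 16 arrays. Of all 14149 genes, 1616, 1219 and 1602 were lower in those 3 fits. In controls, the 13 lower became 22 (quantile), 8 (median centring), 8 (Actb and Rplp0) and 7 (slide block). For the interaction, 10 (quantile) and 5 (slide block) were higher, and 15 (quantile), 4 (median centring), 5 (spike-in) and 2 (Actb and Rplp0) lower. The fits within slides and the slide block of the interaction were chosen after seeing the data. Over all genes, 4866 of 14149 were higher in gWAT with spike-in scaling, 2438 in the fit over 16 arrays and 557 with the replicate block. In controls, 5056 of 14304 genes were lower with quantile normalization, 3692 with median centring and 2937 with Actb and Rplp0 scaling. With the slide block 2950 were lower there. For the interaction, 3357 of 14820 genes were higher and 3821 lower with quantile normalization, and 1700 were higher with the slide block. Lower were 2538 with median centring, 2517 with spike-in and 1395 with Actb and Rplp0 scaling. The cause of these shifts was not tested.

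Changes of sign were Npc2 in BAT at 0.0036 (spike-in), Mcoln1 at -0.37, Tfe3 at -0.37 and Mitf at -0.15 in BAT (Actb and Rplp0), Lamp1 in the interaction at -0.13 (quantile), and, never called in gWAT, Tfeb at 0.059 (spike-in) and 0.048 (mean over probes), Mitf at 0.051 (spike-in) and Tfe3 at -0.061 (quantile) and from -0.024 to 0.10 over the fits without single arrays. Replicate numbers were not shown to pair arrays (correlations of same-numbered deviations -0.159 to 0.55), and apart from the 6 above the replicate block kept the counts within 1.5 times.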
